A study of Arabidopsis thaliana with 9 samples.

Results

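The chloroplast genome of *Arabidopsis* carries a small set of genes, and their RNA was followed here in early heart embryos of 3 genotypes. Every locus of the transcript index whose identifier begins with ATCG was taken, which gave 133 loci of 33603 in all. Estimated counts and TPM (counts per effective model length, scaled to a fixed total per library) of their transcript models were summed per locus. Because 34 of these loci are 17 pairs of copies in the inverted repeats, the 133 loci stand for 116 distinct genes, and the values of copies are given as 1 sum. Of the 116 genes, 82 are protein-coding, 30 encode tRNAs and 4 encode rRNAs. The study asked how the RNA-binding protein FCA and the activator FRIGIDA (FRI) act against each other on the floral repressor *FLC*, and sequenced dissected embryos of 35S::*FCA*, Col *FRI* and Col-0, with 3 libraries each. 35S::*FCA* is Col-0 with a transgene that overexpresses *FCA* from the viral 35S promoter, which acts in most tissues. Col *FRI* carries an active *FRI* in the Columbia background, and its parent plants were grown for their first days on medium and then vernalized for 6 weeks, which no other genotype was, so that effects of *FRI* and of this parental treatment cannot be told apart. Col-0, the wild type of the labels, lacks functional *FRI*, as does the Col-0 background of 35S::*FCA*. Each library held 20 embryos and was made by Smart-seq2 with Tn5 tagmentation, and its 75-nt read pairs came from 2 sequencing runs that the labels do not tell apart.

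Plastids of young embryos are undeveloped proplastids until the embryo turns green, and their genes are read by 2 kinds of RNA polymerase. The plastid-encoded polymerase resembles that of bacteria. Its core subunits are products of the chloroplast genes *rpoA*, *rpoB*, *rpoC1* and *rpoC2*, and it needs sigma factors and associated proteins that the nucleus encodes. It reads mainly photosynthesis genes, rRNA and tRNA genes. The nuclear-encoded phage-type polymerases read, among others, the *rpo* genes, *accD* and *clpP*, and this division of labour is best known from leaves and seedlings. Chloroplast genes are mostly co-transcribed in clusters and cut into shorter RNAs, and chloroplast mRNAs lack the stable poly(A) tail of nuclear mRNAs. Since Smart-seq2 starts cDNA synthesis with oligo-dT, the values below are those of chloroplast RNA that was captured in this way, and its share of all chloroplast RNA is unknown. The library type does not mark the strand, so that RNA from a gene and from its opposite strand cannot be told apart.

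Total estimated counts were 17996274 to 25847613 per library in 35S::*FCA*, 15166826 to 18768286 in Col *FRI* and 20372634 to 24659741 in Col-0. Col-0 replicate 3 stood apart from the other Col-0 libraries. Nuclear rRNA took 13.5% of its counts, against 7.01 and 7.64% in Col-0 replicates 1 and 2, and nuclear mRNA genes took 61.6%, against 81.6 and 79.0%. For this reason the comparisons with Col-0 are given with and without it. The Col *FRI* libraries, in turn, were more alike over all loci than those of the other genotypes. Pairs of libraries were compared on a chi-square scale on which 1 is sampling noise. The median over all loci was 3.05 to 15.2 between 35S::*FCA* libraries, 1.15 to 1.63 between Col *FRI* libraries and 7.27 to 22.0 between Col-0 libraries. Over chloroplast loci alone it was 19.9 to 138 in 35S::*FCA*, 1.86 to 10.8 in Col *FRI* and 25.2 to 659 in Col-0. On this scale the same relative difference gives a higher value in loci with more counts and in deeper libraries. The values thus do not show that chloroplast loci vary more in relative terms. With scaling to chloroplast counts, the medians over chloroplast loci were 4.52 to 16.1, 1.68 to 16.3 and 9.03 to 29.2 in that order. The labels call all libraries biological replicates and each entered as 1 of 3 samples, but the values do not show whether they came from separately collected embryos, and p-values then measure only the spread between these libraries. The embryo markers *LEC1*, *LEC2*, *FUS3*, *WOX2*, *ATML1* and *DRN* summed to 219 to 288 TPM in 35S::*FCA*, 209.8 to 218 TPM in Col *FRI* and 201 to 228 TPM in Col-0, with *DRN* at 0 in the 3 Col *FRI* libraries. The 5 endosperm markers summed to 2.28 to 2.71 TPM in 35S::*FCA*, 2.51 to 2.87 TPM in Col *FRI* and 1.44 to 4.66 TPM in Col-0, the highest value being that of Col-0 replicate 3. The 5 seed coat markers summed to 12.6 to 17.0 TPM in 35S::*FCA*, 11.0 to 12.6 TPM in Col *FRI* and 11.8 to 14.6 TPM in Col-0, and none of the endosperm and seed coat markers was at 0 in any library. *STK*, with 4.94 to 10.2 TPM, weighed most in this sum. Within Col-0 single markers were less even, with *BAN* at 1.15, 2.48 and 5.20 TPM and *TT10* at 0.349, 0.737 and 1.11 TPM. *STK*, *TTG2* and *TT12* did not rise in this order. Of these 16 marker genes, 13 could be tested and none passed an adjusted p under 0.05 in any comparison.

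The 133 chloroplast loci took 5.22 to 10.9% of all estimated counts. In 35S::*FCA* the share was 8.75, 6.58 and 7.25% in replicates 1, 2 and 3. In Col *FRI* it was 9.29, 9.55 and 9.49%, and in Col-0 it was 5.22, 6.29 and 10.9%. The Col *FRI* libraries lay close together and above all 3 of 35S::*FCA*, whereas Col-0 spanned both. Means were 7.53 ± 1.11% for 35S::*FCA*, 9.44 ± 0.134% for Col *FRI* and 7.45 ± 2.99% for Col-0, with SD over 3 libraries each. Without Col-0 replicate 3, both Col-0 libraries lay below every library of the other genotypes, and the difference from Col-0 was 1.77 percentage points in 35S::*FCA* and 3.69 in Col *FRI*, against 0.0712 and 1.99 with it. An exact permutation test of 3 libraries against 3 cannot give a p below 0.1, so shares are described by their values, ranges and overlap. A share of counts also depends on the other RNA of the library. Nuclear mRNA genes took 73.4, 77.1 and 76.2% of counts in 35S::*FCA* and 70.5, 70.1 and 70.1% in Col *FRI*. In whole embryos, more plastid-rich cells, more plastid RNA per cell and less nuclear mRNA cannot be told apart by these shares.

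**Figure D1:**
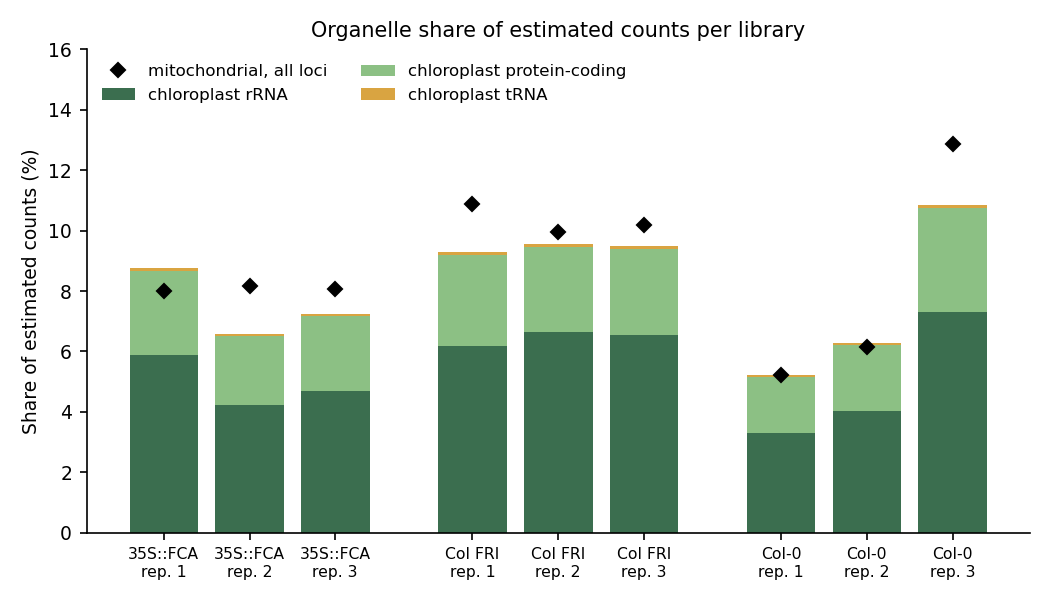
Share of all estimated counts per library (%, vertical axis) taken by chloroplast rRNA, protein-coding and tRNA loci (stacked bars) and by mitochondrial loci (diamonds), for 3 libraries of each genotype. Chloroplast bars end between 9.29 and 9.55% in Col *FRI*, between 6.58 and 8.75% in 35S::*FCA* and between 5.22 and 10.9% in Col-0, where replicate 3 is the highest bar of the plot.

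The share in TPM, which divides counts by effective length, gave the same order of libraries within Col-0, with 8.94, 10.1 and 15.6%. It was 13.1, 10.9 and 11.5% in 35S::*FCA* and 14.9, 13.8 and 13.9% in Col *FRI*. Protein-coding chloroplast loci alone took 2.78, 2.30 and 2.48% of counts in 35S::*FCA*, 3.01, 2.82 and 2.85% in Col *FRI* and 1.87, 2.18 and 3.44% in Col-0. Set against nuclear mRNA counts, which leaves rRNA out of both sides, there were 37.9, 29.8 and 32.5 chloroplast protein-coding counts per 1000 nuclear mRNA counts in 35S::*FCA*, 42.7, 40.2 and 40.7 in Col *FRI*, and 23.0, 27.6 and 55.8 in Col-0. On each of these scales all Col *FRI* libraries lay above all 35S::*FCA* libraries. The mitochondrial share was also highest in Col-0 replicate 3 and higher in Col *FRI* than in 35S::*FCA*, but was even within 35S::*FCA*. It was 8.01, 8.16 and 8.06% in 35S::*FCA*, 10.9, 9.94 and 10.2% in Col *FRI* and 5.21, 6.15 and 12.8% in Col-0. Of all organelle counts, chloroplast loci took 44.6 to 52.2% in 35S::*FCA*, 46.0 to 49.0% in Col *FRI* and 45.8 to 50.5% in Col-0, and these ranges overlap. Nuclear rRNA took 8.64, 7.08 and 7.36% of counts in 35S::*FCA*, 8.18, 9.35 and 9.14% in Col *FRI* and 7.01, 7.64 and 13.5% in Col-0. Within each genotype it ranked the libraries as the chloroplast share did, while 35S::*FCA* and Col *FRI* overlapped. Whether depth, nuclear rRNA content or the mitochondrial share has a part in the differences in chloroplast share was not tested.

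Within the chloroplast counts, rRNA was the largest class. The 4 rRNA genes, which lie in the inverted repeats and build the plastid ribosome with the ribosomal proteins, took 67.1, 64.1 and 64.8% of chloroplast counts in 35S::*FCA*, 66.6, 69.5 and 69.0% in Col *FRI* and 63.0, 64.2 and 67.4% in Col-0. The genotypes overlapped, and Col-0 replicate 3 lay within the range of the others here. *rrn23S* (ATCG00950 and ATCG01180), the RNA of the large ribosomal subunit, alone held 54.6% of mean chloroplast counts, and *rrn16S* (ATCG00920 and ATCG01210), that of the small subunit, 11.2%. Per length, *rrn23S* reached 11944, 9985 and 10619 TPM in 35S::*FCA*, 12576, 14044 and 13780 TPM in Col *FRI* and 6934, 8583 and 15094 TPM in Col-0. *rrn16S* reached 4833, 2944 and 3627 TPM in 35S::*FCA*, 5255, 5800 and 5756 TPM in Col *FRI* and 2944, 3972 and 6810 TPM in Col-0. Both were higher in each Col *FRI* library than in each 35S::*FCA* library. The 10 genes with the most counts, *rrn23S*, *rrn16S*, *ycf1*, *psaA*, *psaB*, *ycf2*, *atpB*, *rpl2*, *matK* and *rpoA*, held 81.2% of mean chloroplast counts together.

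Among the 82 protein-coding genes, ribosomal protein genes (*rps* and *rpl*) took 7.45 to 9.02% of chloroplast counts across the 9 libraries, photosystem I genes 4.26 to 5.92%, photosystem II genes 2.63 to 3.41%, ATP synthase genes 2.63 to 3.10%, RNA polymerase genes 2.60 to 3.34%, NDH genes 1.53 to 1.94% and cytochrome b6f genes 0.921 to 1.13%. *rbcL*, which encodes the large subunit of the carbon-fixing enzyme Rubisco, took 0.241 to 0.388%. Transcripts of the photosynthetic apparatus were detected at the early heart stage in every library, beside those of the plastid's own gene expression machinery. Per length, photosynthesis genes summed to 1.64, 1.46 and 1.53 times the TPM of RNA polymerase and ribosomal protein genes in 35S::*FCA*, 1.57, 1.57 and 1.54 times in Col *FRI*, and 1.62, 1.70 and 1.53 times in Col-0. This ratio overlapped between all genotypes. It leans on short models with high TPM on both sides, such as *psbM* with a mean of 11152 TPM and *rpl32* with 5740 TPM. Counted in reads rather than per length, it was 1.22, 1.15 and 1.17 in 35S::*FCA*, 1.23, 1.24 and 1.24 in Col *FRI* and 1.27, 1.40 and 1.32 in Col-0, and on this scale the genotypes did not overlap.

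In photosystem I, the reaction centre genes *psaA* (ATCG00350) and *psaB* (ATCG00340) led by counts. *psaA* had 593, 652 and 633 TPM in 35S::*FCA*, 674, 649 and 659 TPM in Col *FRI* and 440.4, 606 and 889 TPM in Col-0. *psaB* had 533, 552 and 552 TPM in 35S::*FCA*, 625, 583 and 598 TPM in Col *FRI* and 415, 570.2 and 807 TPM in Col-0. Both were even within 35S::*FCA* and Col *FRI*, and the Col-0 libraries enclosed these values on both sides. In photosystem II the order was very uneven. *psbA* (ATCG00020), which encodes the D1 protein of the reaction centre and is known as one of the most abundant mRNAs of green leaves, had only 42.5, 24.7 and 31.1 TPM in 35S::*FCA*, 44.5, 46.0 and 43.1 TPM in Col *FRI* and 27.7, 38.7 and 52.2 TPM in Col-0. It had the lowest mean TPM of the 15 photosystem II genes, at 38.9 TPM over all libraries, or place 110 of 116. Its partner *psbD* (D2 protein, ATCG00270) averaged 230.5 TPM, and the inner antenna genes *psbB* (ATCG00680) and *psbC* (ATCG00280) averaged 205 and 96.4 TPM. The models of *psbD* and *psbC* overlap by 53 nt on the same strand, so that some of their reads could be assigned to either.

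The highest photosystem II gene, and the protein-coding gene with the highest TPM in the chloroplast, was *psbM* (ATCG00220), which encodes a small subunit of the photosystem II dimer. It had 12553, 9431 and 10872 TPM in 35S::*FCA*, 13169, 12456 and 12142 TPM in Col *FRI* and 8986, 9199 and 11556 TPM in Col-0. Next came *rpl32* (ATCG01020), a protein of the large ribosomal subunit, with 6135, 4900 and 5371 TPM in 35S::*FCA*, 7052, 6241 and 6464 TPM in Col *FRI* and 4702, 4342 and 6457 TPM in Col-0. Both models are short, and kallisto divided the counts of *psbM* by an effective length of only 25.6 to 30.2 nt, so that its 7946 to 11538 counts per library, fewer than those of *psaA* or *atpB*, became the higher TPM. In *petN* (ATCG00210), a model of 90 nt that encodes a small cytochrome b6f subunit, the counts were 34 to 91 and the level 49.4 to 142 TPM.

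The sequences of *psbM*, *rpl32* and *petN* are shown because these short genes differ widely in level, and the last 120 bases of *psbA* and *psbB* because these photosystem II mRNAs differ in level. They were read from the RefSeq chloroplast genome (assembly TAIR10.1) on the coding strand, 5′ to 3′, and capitals mark runs of 4 or more A, the base that oligo-dT pairs with.
*psbM* (chloroplast, 28707 to 28811, minus strand, whole): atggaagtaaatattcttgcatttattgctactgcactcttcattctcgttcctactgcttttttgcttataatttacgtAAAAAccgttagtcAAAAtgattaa
*rpl32* (chloroplast, 113449 to 113607, plus strand, whole): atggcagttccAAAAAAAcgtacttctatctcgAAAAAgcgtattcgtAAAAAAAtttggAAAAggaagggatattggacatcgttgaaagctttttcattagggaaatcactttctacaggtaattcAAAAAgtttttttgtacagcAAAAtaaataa
*petN* (chloroplast, 28089 to 28178, plus strand, whole): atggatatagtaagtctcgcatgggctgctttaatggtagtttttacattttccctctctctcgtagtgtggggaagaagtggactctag
*psbA* (chloroplast, gene at 383 to 1444, minus strand, last 120 bases): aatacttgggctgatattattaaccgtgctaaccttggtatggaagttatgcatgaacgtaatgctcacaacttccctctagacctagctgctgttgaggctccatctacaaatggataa
*psbB* (chloroplast, gene at 72371 to 73897, plus strand, last 120 bases): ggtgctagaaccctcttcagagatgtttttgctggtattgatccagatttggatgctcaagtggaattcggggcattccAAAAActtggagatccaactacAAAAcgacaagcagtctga
*psbM* holds 2 such runs and *rpl32* 6, the longest of 7 A, whereas *petN* holds none. The end of *psbB* holds 2 and the end of *psbA* none. These sequences were picked with their levels known. Among other short genes, *psbK* and *petG*, which hold no such run, averaged 2659 and 2268 TPM. *petL*, whose longest run is 4 A, averaged 2585 TPM, and *psbT*, with a run of 6 A, averaged 876 TPM. Over the 49 protein-coding genes of at least 300 nt with a matched sequence, mean TPM and the percentage of A had a Spearman rho of 0.406, mean TPM and the longest run of A 0.0513, and mean TPM and the percentage of A and T together -0.103. These are correlations across genes of the same libraries, whose base composition also varies with function and position. The part of oligo-dT priming in the levels was not tested.

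The remaining photosynthesis genes fell between these ends. In the cytochrome b6f complex, which links the photosystems, *petL* (ATCG00590) led with 2596, 2199 and 2389 TPM in 35S::*FCA*, 3241, 2625 and 2714 TPM in Col *FRI* and 1884, 2310 and 3310 TPM in Col-0, while *petB* (ATCG00720), its cytochrome b6 subunit, averaged 488 TPM and *petD* 62.6 TPM. The effective length of *petL* was only 21.3 to 25.4 nt, against 517 to 529 nt for *petB*, which raises its TPM as in *psbM*. In the ATP synthase, *atpE* (ATCG00470) and *atpB* (ATCG00480), subunits of its catalytic head, averaged 1393 and 701 TPM, and their models overlap by 4 nt. *atpA* (ATCG00120), the other large subunit of that head, averaged only 87.8 TPM. *atpB* was even within both of the first genotypes, with 727, 717 and 729 TPM in 35S::*FCA* and 747, 741 and 738 TPM in Col *FRI*, against 456, 578 and 879 TPM in Col-0. In the NDH complex, which carries electrons around photosystem I, levels ran from 20.1 TPM for *ndhH* to 396 TPM for *ndhE* (ATCG01070), and *ndhF* (ATCG01010) averaged 57.9 TPM. *rbcL* (ATCG00490) had 139, 88.9 and 109.5 TPM in 35S::*FCA*, 168, 171 and 167 TPM in Col *FRI* and 95.5, 131 and 194 TPM in Col-0, so that all Col *FRI* libraries lay above all 35S::*FCA* libraries.

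Of the RNA polymerase genes, *rpoA* (ATCG00740) had the highest level, with 766, 786 and 791 TPM in 35S::*FCA*, 821, 796 and 796 TPM in Col *FRI* and 518, 628 and 924 TPM in Col-0. The 3 genes of the *rpoB* cluster were lower. *rpoC1* (ATCG00180) averaged 158 TPM, *rpoC2* (ATCG00170) 138.5 TPM and *rpoB* (ATCG00190) 38.3 TPM, and this order was the same in all 9 libraries. *rpoB* had 40.2, 36.1 and 39.3 TPM in 35S::*FCA*, 41.6, 40.6 and 38.2 TPM in Col *FRI* and 26.6, 31.0 and 51.4 TPM in Col-0. Among the ribosomal protein genes *rpl2* (ATCG00830 and ATCG01310) had 1383, 1475 and 1447 TPM in 35S::*FCA*, 1475, 1438 and 1443 TPM in Col *FRI* and 922, 1019 and 1652 TPM in Col-0. *rps7* (ATCG00900 and ATCG01240) had 984, 971 and 985 TPM in 35S::*FCA*, 1143, 1146 and 1149 TPM in Col *FRI* and 627, 740.3 and 1166 TPM in Col-0.

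Genes outside these classes include several that plants keep in plastids that do not photosynthesize. *accD* (ATCG00500), a subunit of the acetyl-CoA carboxylase that starts fatty acid synthesis, had 274, 206 and 227 TPM in 35S::*FCA*, 317, 322 and 319 TPM in Col *FRI* and 194, 226 and 324 TPM in Col-0. *clpP* (ATCG00670), a protease subunit, had 329.7, 308 and 312 TPM in 35S::*FCA*, 373, 357 and 364 TPM in Col *FRI* and 214, 256 and 395 TPM in Col-0. Both were higher in every Col *FRI* library than in every 35S::*FCA* library. The maturase gene *matK* (ATCG00040), whose product helps to splice plastid introns, led this class with a mean of 619 TPM and carries *trnK*, the tRNA gene with the highest mean (4622 TPM), around it. The effective length of *trnK* was only 14.2 to 16.2 nt. The long *ycf1* (ATCG01130), linked to protein import, averaged 280.0 TPM, and *ycf2* (ATCG00860 and ATCG01280) 153 TPM. *ycf2* had 166, 167 and 168 TPM in 35S::*FCA*, 156, 150.1 and 153 TPM in Col *FRI* and 96.9, 127 and 191 TPM in Col-0.

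**Figure D2:**
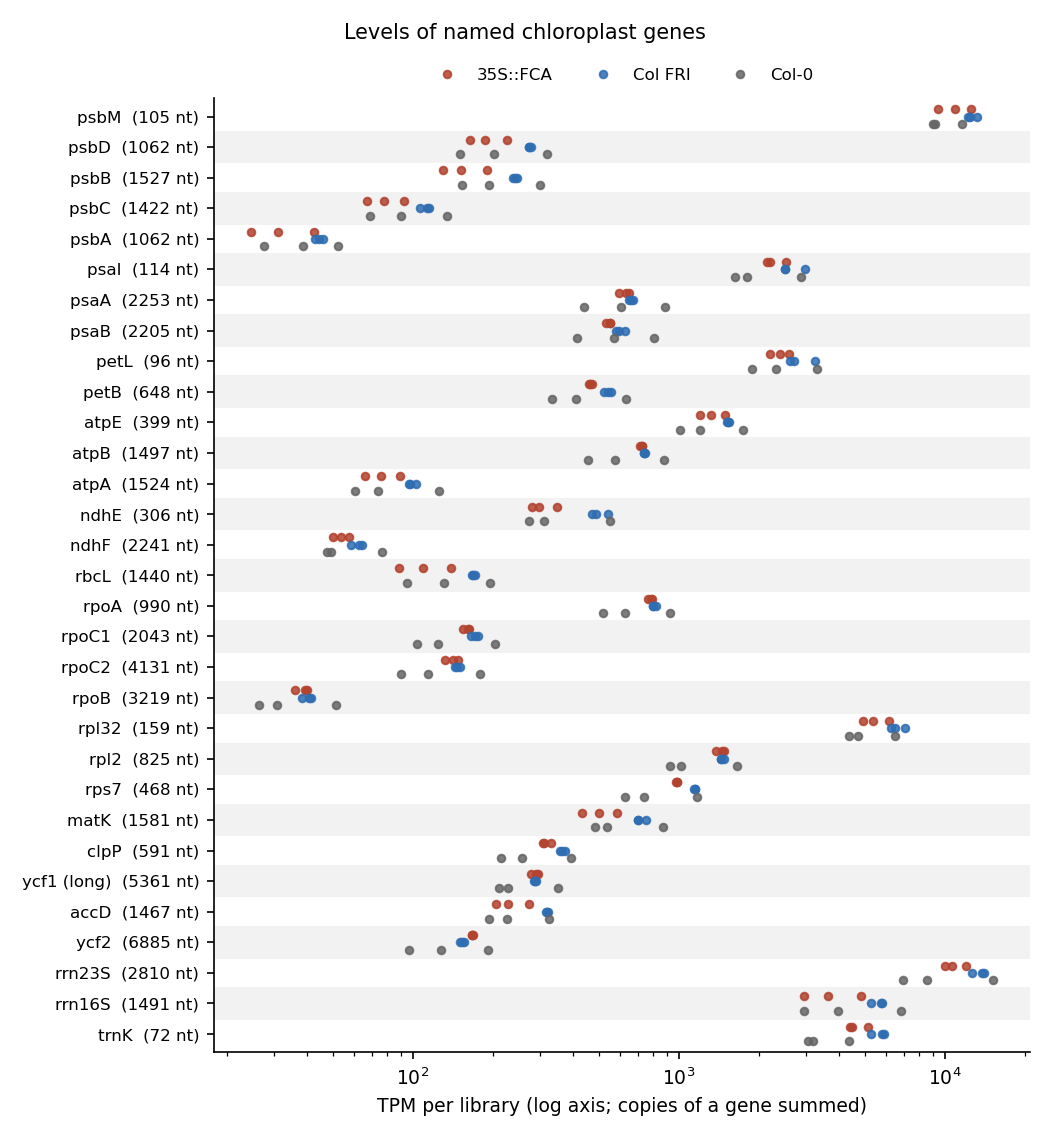
Levels of the named chloroplast genes in TPM (log axis), 1 point per library, with 35S::*FCA* on top, then Col *FRI*, then Col-0 within a gene and the length of the model in brackets. *psbM* lies between 8986 and 13169 TPM and *psbA* between 24.7 and 52.2 TPM, and for most genes the 3 Col-0 points spread more widely than those of the other genotypes.

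Differences between genotypes were tested with edgeR's quasi-likelihood test over 18585 loci, of which 132 were chloroplast loci, with p-values adjusted by Benjamini-Hochberg over all of them. Calls needed an adjusted p below 0.001 together with more than a 2-fold difference. No chloroplast locus was called in any of the 3 comparisons. Over all loci the calls were 0.00538% higher and 0% lower in 35S::*FCA* against Col-0, 0.0646% higher and 0.118% lower in Col *FRI* against Col-0, and 0.366% higher and 0.194% lower in Col *FRI* against 35S::*FCA*. At an adjusted p under 0.05 with no fold threshold, no chloroplast locus passed in 35S::*FCA* against Col-0, where 0.49% of all loci passed as higher and 1.03% as lower, and none in Col *FRI* against Col-0, where 6.04% passed as higher and 7.22% as lower. DESeq2 gave 0 loci for 35S::*FCA* and 1, *trnK*, for Col *FRI*. At an unadjusted p under 0.05 there were 1 and 8 of 132, or 0.758 and 6.06%, against 18.8 and 30.0% of all loci. In Col *FRI* against 35S::*FCA* 2 loci passed as higher and none as lower, against 7% and 5.92% of all loci. At an unadjusted p under 0.05 there were 13 of 132, or 9.85%, against 29.7% of all loci.

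The loci with the smallest p in each comparison show how wide the libraries spread. In 35S::*FCA* against Col-0 the smallest was that of the short *ycf1* (ATCG01000, edgeR adjusted p = 0.225), whose few counts are given with Col *FRI* against 35S::*FCA*. *psbT* (ATCG00690), a small photosystem II subunit, had 761, 514 and 673 TPM in 35S::*FCA*, against 672, 798 and 1205 TPM in Col-0, which edgeR estimated as a log2 fold change of -0.56 ± 0.294 (standard error) with an adjusted p of 0.336. *rps14* (ATCG00330), a ribosomal protein gene, had 267, 201 and 244 TPM in 35S::*FCA*, against 231, 299 and 401 TPM in Col-0, or -0.49 ± 0.261 on the log2 scale with an edgeR adjusted p of 0.344. Both overlapped between the genotypes, and both rested on single libraries. Without Col-0 replicate 3 the log2 fold change was -0.16 for *psbT* and -0.13 for *rps14*, and without 35S::*FCA* replicate 2 it was -0.33 and -0.30. *trnK* (ATCG00030) had 5276, 5889 and 5798 TPM in Col *FRI*, against 3066, 3200.2 and 4371 TPM in Col-0, or 0.67 ± 0.218 on the log2 scale with an edgeR adjusted p of 0.0699, and no overlap. It passed with DESeq2 (adjusted p = 0.019), with no filter on low counts in edgeR (0.031) and without Col-0 replicate 3 (0.0083). The *trnV* copies ATCG00910 and ATCG01220 had 55.0, 53.5 and 76.1 TPM in Col *FRI*, against 60.4, 143 and 282 TPM in Col-0, from only 19 to 29 and 34 to 128 counts (log2 fold change -1.41, edgeR adjusted p = 0.119). Without Col-0 replicate 1 it was -1.84 (adjusted p = 0.029) and without Col-0 replicate 3 it was -0.65 (adjusted p = 0.324). *rrn5S*, an RNA of the large ribosomal subunit, had 1430, 1520 and 1487 TPM in Col *FRI*, against 893, 862 and 1131 TPM in Col-0 or 0.58 on the log2 scale (edgeR adjusted p = 0.122, and 0.028 without Col-0 replicate 3).

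*ndhK* (ATCG00430), a subunit of the NDH complex, was higher in Col *FRI* than in 35S::*FCA*, with 34.1, 34.5 and 31.9 TPM in Col *FRI*, against 25.6, 16.6 and 18.3 TPM in 35S::*FCA*. The difference was 0.83 ± 0.242 on the log2 scale (edgeR adjusted p = 0.0493) and rested on 419 to 526 counts per Col *FRI* library and 297 to 386 per 35S::*FCA* library. Its neighbour *ndhJ* (ATCG00420) had 92.2, 89.7 and 94.3 TPM in Col *FRI*, against 67.8, 51.0 and 55.6 TPM in 35S::*FCA*, or 0.76 on the log2 scale with an edgeR adjusted p of 0.0562. In both genes the libraries did not overlap. The other locus past the threshold was the short *ycf1* (ATCG01000, edgeR adjusted p = 0.0300), with 24.2, 18.8 and 18.9 estimated counts in Col *FRI*, 0 in all 3 libraries of 35S::*FCA*, and 20.4, 0 and 0 in Col-0. It shares its first 1030 bases with the long *ycf1*, which had 32810 to 55701 counts per library, so that these few counts depend on how kallisto divided shared reads, and no fold is given. The call of *ndhK* was lost when any library of the pair other than 35S::*FCA* replicate 1 was left out, with values of 0.63 to 0.86 on the log2 scale and adjusted p of 0.118 to 0.173 in edgeR. Without 35S::*FCA* replicate 1, 7 of 132 chloroplast loci were higher in Col *FRI* and none lower, against 6.81 and 6.99% of all loci. These 7 were *trnF*, *ndhJ*, *ndhK*, *psbT*, both copies of *rrn5S* and the short *ycf1*. With only the 2 genotypes in the fit, 26 of 131 chloroplast loci were higher and 2 lower, against 13.2 and 11.7% of all loci. The higher ones included *psbB*, *psbD*, *psbT*, *psbH*, *matK*, *rps7*, *ndhE*, *ndhG*, *rrn4.5S* and *rrn5S*, and the lower ones were the *trnV* copies.

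Over all loci and by class, the fold changes were small. In Col *FRI* against 35S::*FCA* the median log2 fold change was 0.31 over the 132 chloroplast loci and -0.01 over all loci, with 119 of 132 above 0. By class it was 0.67 for rRNA, 0.67 for *rbcL*, 0.41 for ATP synthase, 0.35 for photosystem II, 0.30 for cytochrome b6f, 0.26 for NDH, 0.25 for photosystem I, 0.25 for ribosomal proteins and 0.17 for RNA polymerase. It was 0.28 for tRNA, where 27 of 37 loci were above 0, and 0.25 for the other genes, where 11 of 13 were. In Col *FRI* against Col-0 it was 0.21, with 124 of 132 above 0 and class medians from 0.13 for cytochrome b6f to 0.38 for rRNA. This median rested on single Col-0 libraries, since it was -0.01 without Col-0 replicate 1, 0.10 without replicate 2 and 0.63 without replicate 3. In 35S::*FCA* against Col-0 it was -0.10, with 38 of 132 above 0 and class medians from -0.41 for *rbcL* to 0.03 for RNA polymerase. Signs were mixed within classes there, with 9 of 25 ribosomal protein loci, 15 of 37 tRNA loci and 3 of 4 RNA polymerase loci above 0. The median was -0.31 without Col-0 replicate 1, -0.22 without replicate 2, 0.32 without replicate 3, -0.30 without 35S::*FCA* replicate 1 and 0.03 without 35S::*FCA* replicate 2. Only *ndhK* and the short *ycf1* passed an adjusted p under 0.05, so these medians are descriptions, and chloroplast loci are not independent of each other, since they share organelle, clusters and library. The 2 comparisons with Col-0 share its libraries.

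**Figure D3:**
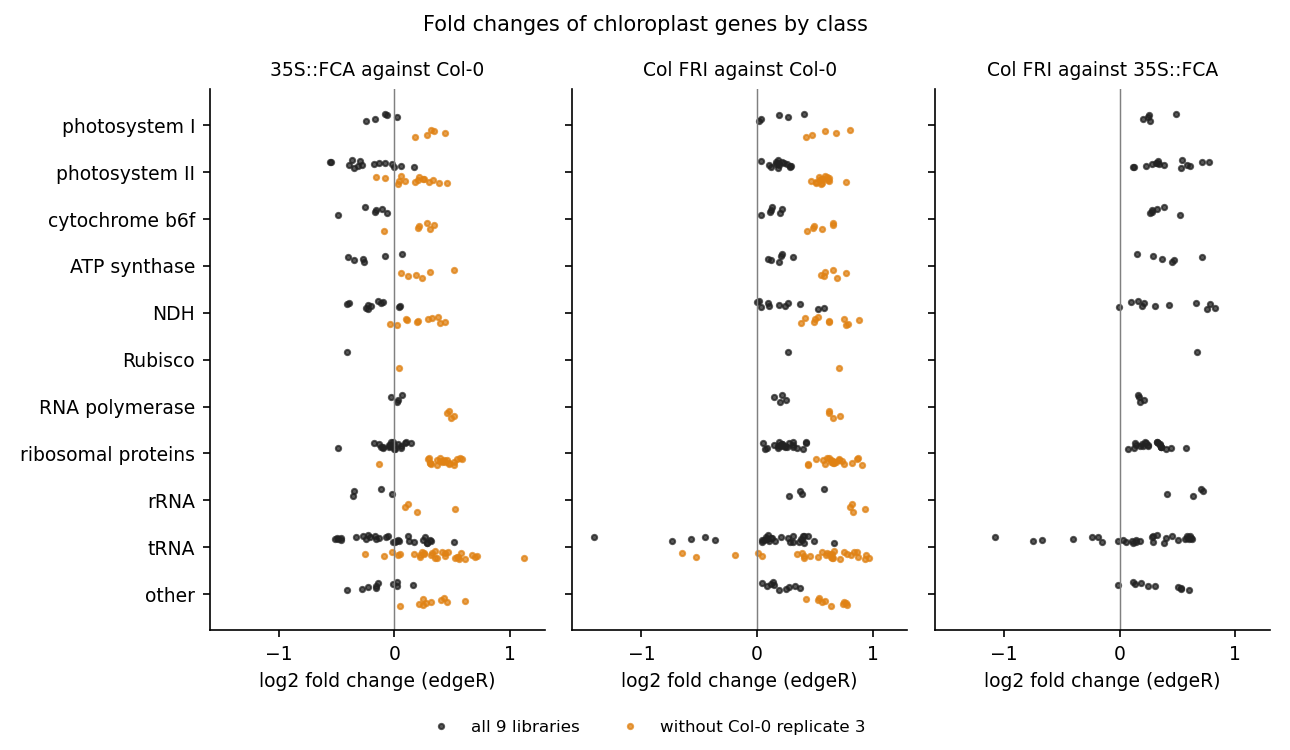
Log2 fold change of each chloroplast gene (horizontal axis, edgeR) by class in the 3 comparisons, from all 9 libraries (black) and without Col-0 replicate 3 (orange), with the short *ycf1* and the second *rps12* copy left out because of their few counts. Leaving out Col-0 replicate 3 moves nearly all classes to the right, to a median over loci of 0.32 in 35S::*FCA* and 0.63 in Col *FRI* against Col-0.

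Without Col-0 replicate 3, the library with the highest chloroplast share, the comparisons with Col-0 changed. Its omission by itself raises the fold changes of chloroplast loci, so the counts below are not independent support for a difference. In 35S::*FCA* 14 of 132 chloroplast loci were higher and none lower at an edgeR adjusted p under 0.05, against 3.21 and 5.24% of all loci. The median over chloroplast loci turned to 0.32. In Col *FRI* 78 of 132 were higher and none lower, against 9.8 and 12% of all loci, with a median of 0.63. These are 11 and 68 genes, and all 11 were among the 68. Both comparisons used the same 2 Col-0 libraries, so this overlap is not independent either. The genes higher in 35S::*FCA* included *rpl2*, *rps7*, *rps19*, both parts of *rps12*, *rpoC1*, *ycf2*, *trnH* and *trnQ*, and no photosystem, cytochrome b6f, ATP synthase or NDH gene was among them. Most loci of these classes were above 0 all the same. They were 5 of 5 in photosystem I, 13 of 15 in photosystem II, 5 of 6 in cytochrome b6f, 6 of 6 in ATP synthase and 11 of 12 in NDH. Their class medians were 0.20 to 0.32, against 0.42 for ribosomal proteins. *rpl2* showed the smallest p, with a log2 fold change of 0.59 (edgeR adjusted p = 0.014). In Col *FRI* the genes covered all classes but Rubisco. All 4 RNA polymerase loci were higher, as were 23 of 25 ribosomal protein loci, 6 of 8 rRNA loci, 9 of 12 NDH loci, 4 of 5 photosystem I loci, 3 of 6 ATP synthase loci, 6 of 15 photosystem II loci, 2 of 6 cytochrome b6f loci and 12 of 37 tRNA loci. *rps7* had a log2 fold change of 0.87 (edgeR adjusted p = 0.0028), *trnK* 0.94 (adjusted p = 0.0083), *rrn23S* 0.93 (adjusted p = 0.014) and *psaA* 0.47 (adjusted p = 0.044). *rbcL* had 0.71 (adjusted p = 0.080), *rrn16S* 0.83 (adjusted p = 0.065) and *psbA* 0.56 (adjusted p = 0.195). The Col-0 group then held 2 libraries, and its spread was estimated together with that of the other genotypes.

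The composition of the chloroplast mRNA was compared as shares of the protein-coding chloroplast counts, which removes the total chloroplast share. On this scale Col-0 replicate 3 lay near the other Col-0 libraries. Ribosomal protein genes took 25.0, 25.8 and 25.4% in 35S::*FCA*, 25.3, 25.2 and 25.4% in Col *FRI* and 24.9, 23.2 and 24.0% in Col-0. RNA polymerase genes took 9.15, 9.56 and 9.47% in 35S::*FCA*, 8.85, 8.81 and 8.70% in Col *FRI* and 8.41, 8.64 and 8.77% in Col-0. The highest RNA polymerase shares were thus those of 35S::*FCA*, above all 6 other libraries. Photosystem I genes took 14.0, 16.1 and 15.1% in 35S::*FCA*, 14.8, 14.4 and 14.6% in Col *FRI* and 14.98, 17.1 and 16.2% in Col-0. Photosystem II genes took 9.19, 7.53 and 8.17% in 35S::*FCA*, 9.05, 9.45 and 9.37% in Col *FRI* and 9.50, 9.34 and 8.80% in Col-0. Both photosystems together took 23.2, 23.6 and 23.3% in 35S::*FCA*, 23.8, 23.9 and 24.0% in Col *FRI* and 24.5, 26.4 and 25.0% in Col-0, and the 3 genotypes did not overlap. This separation held on that denominator only. Of all chloroplast counts the photosystems took 7.39 to 8.24% in 35S::*FCA*, 7.05 to 7.72% in Col *FRI* and 7.93 to 9.16% in Col-0, so that only Col *FRI* and Col-0 were apart, and of chloroplast TPM all genotypes overlapped. The differences were small beside the class sizes, at most 1.93 percentage points between genotype means for the photosystems and 0.789 for RNA polymerase. With library sizes set to chloroplast counts in edgeR, no chloroplast locus other than the short *ycf1* passed an adjusted p under 0.05 in any comparison. Nuclear loci stood on the same scale in this fit, with a median over all loci of -0.54 in Col *FRI* against Col-0. Spread and adjustment were shared with them, so the absence of calls does not show an equal composition.

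**Figure D4:**
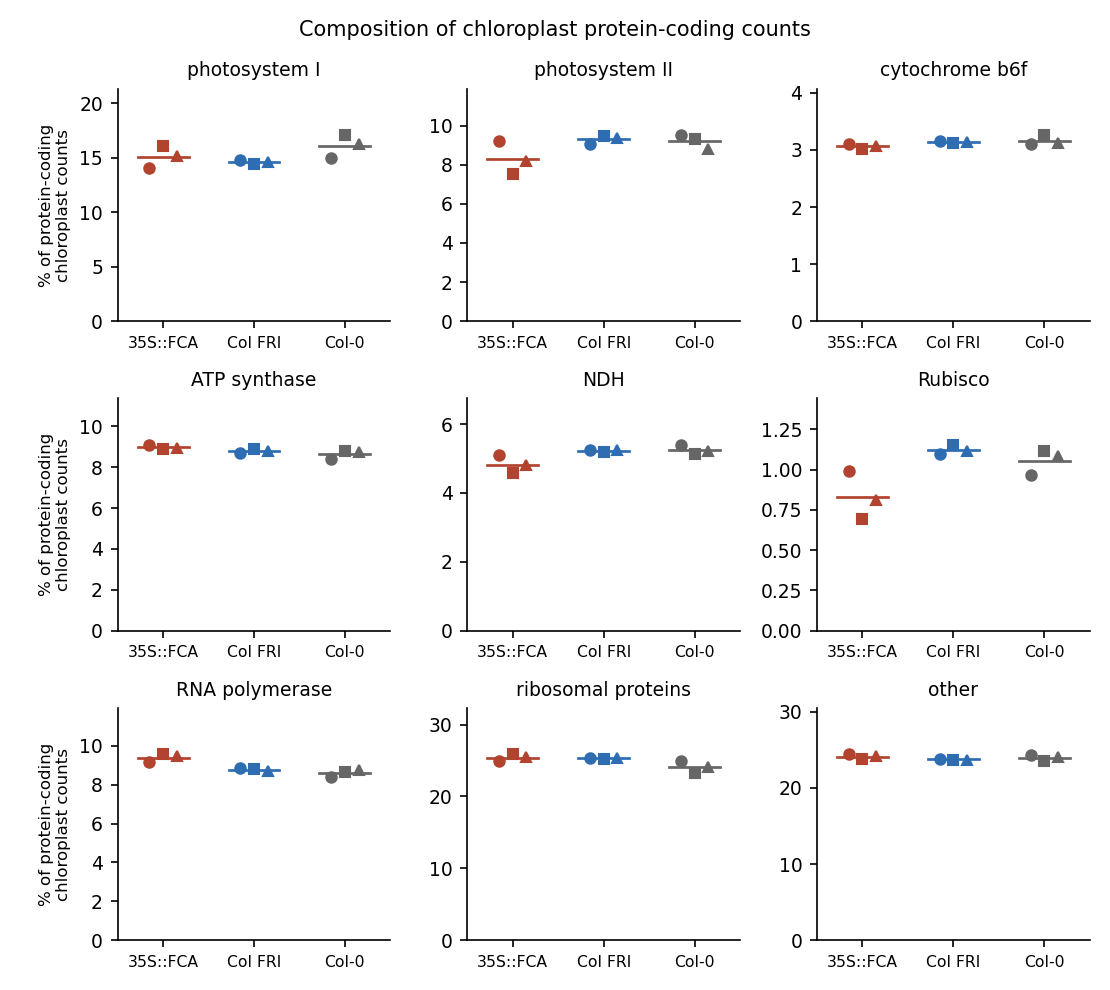
Share of protein-coding chloroplast counts (%, vertical axes starting at 0) taken by each class, 1 point per library (circle, square and triangle for replicates 1, 2 and 3) with the mean as a line. RNA polymerase genes take 9.15 to 9.56% in 35S::*FCA*, above the 8.70 to 8.85% of Col *FRI* and the 8.41 to 8.77% of Col-0, while only photosystem II and the other genes overlap in all 3 pairs of genotypes.

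Single genes were set side by side on the same scale. *psbB* took 1.44, 1.08 and 1.20% of protein-coding chloroplast counts in 35S::*FCA*, 1.71, 1.72 and 1.73% in Col *FRI* and 1.65, 1.75 and 1.79% in Col-0. All 3 libraries of 35S::*FCA* were below the 6 others. *psbB* heads a cluster with *psbT*, *psbH*, *petB* and *petD* that is transcribed together. *psbT* took 0.116, 0.0824 and 0.106% in 35S::*FCA*, 0.156, 0.140 and 0.141% in Col *FRI* and 0.144, 0.148 and 0.142% in Col-0, and *psbH* 0.452, 0.409 and 0.435% in 35S::*FCA*, 0.547, 0.514 and 0.515% in Col *FRI* and 0.532, 0.533 and 0.527% in Col-0. Further along the cluster, *petB* took 1.31, 1.42 and 1.39% in 35S::*FCA*, 1.43, 1.40 and 1.44% in Col *FRI* and 1.34, 1.40 and 1.41% in Col-0, with overlap between all genotypes. *psbN*, which lies in the cluster on the opposite strand, cannot be separated from it by strand.

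Lower shares in 35S::*FCA* than in all 6 other libraries were also seen for *psbC*, with 0.654, 0.518 and 0.568% in 35S::*FCA*, 0.687, 0.754 and 0.761% in Col *FRI* and 0.689, 0.759 and 0.741% in Col-0, and for *matK*, with 4.63, 3.72 and 4.12% in 35S::*FCA*, 5.46, 5.25 and 5.21% in Col *FRI* and 5.40, 5.04 and 5.38% in Col-0. *rbcL* took 0.990, 0.691 and 0.811% in 35S::*FCA*, 1.10, 1.15 and 1.12% in Col *FRI* and 0.966, 1.12 and 1.09% in Col-0, where replicate 1 overlapped with 35S::*FCA*. *ndhE* was in 3 steps, with 0.350, 0.302 and 0.309% in 35S::*FCA*, 0.480, 0.450 and 0.454% in Col *FRI* and 0.386, 0.379 and 0.433% in Col-0. Higher shares in 35S::*FCA* than in all 6 other libraries were seen for *ycf2* and *rpl2*. *ycf2* took 6.09, 6.71 and 6.40% in 35S::*FCA*, 5.25, 5.20 and 5.27% in Col *FRI* and 5.04, 5.55 and 5.49% in Col-0. *rpl2* took 5.26, 6.09 and 5.71% in 35S::*FCA*, 5.10, 5.17 and 5.14% in Col *FRI* and 4.96, 4.63 and 4.91% in Col-0. *rpoC2* took 3.20, 3.13 and 3.19% in 35S::*FCA*, 3.02, 3.00 and 2.93% in Col *FRI* and 2.79, 2.95 and 3.05% in Col-0. These genes were chosen for display after their values were seen, and none passed the edgeR test scaled to chloroplast counts. That test shared its spread and adjustment with nuclear loci, so it cannot show that the shares of these genes are equal. Within 35S::*FCA* the shares of *psbB*, *psbC*, *rbcL* and *matK* were highest in replicate 1 and lowest in replicate 2, which is also the order of the total chloroplast share in these libraries, and the part of that share in the composition was not tested.

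**Figure D5:**
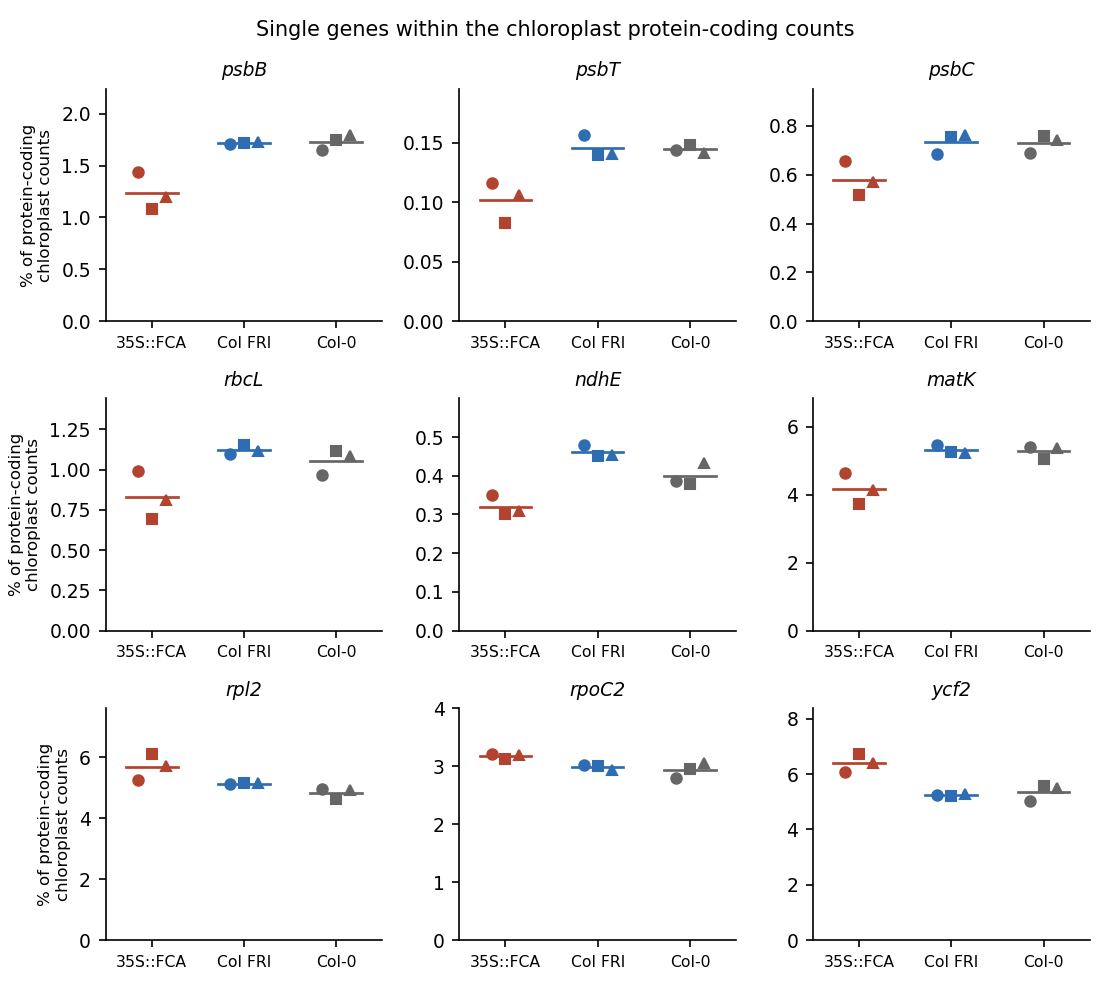
Share of protein-coding chloroplast counts (%, vertical axes starting at 0) of 9 single genes, 1 point per library with the mean as a line. *psbB*, *psbT*, *psbC*, *ndhE* and *matK* lie lower in all 3 libraries of 35S::*FCA* than in the 6 others, while *rpl2*, *rpoC2* and *ycf2* lie higher in them.

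Some loci could not be read with certainty. Of the 133 loci, 83 had whole estimated counts in every library within 0.01 and 50 had fractional counts in at least 1 library, which kallisto gives where reads are shared between models. The tRNA loci *trnD*, *trnY*, *trnE* and both copies of *trnN* match nuclear sequence of the reference over more than 90% of their length at 98% identity or more, and part of *ycf2*, *rpoC2*, *atpI* and *ccsA* does so too, so that nuclear copies of chloroplast DNA could share their reads. *rrn23S* matches mitochondrial sequence in the same way over 18.1% of its length. Nearly all counts of the *rps12* 3′ part were assigned to ATCG01230, with a mean of 3788, and hardly any to ATCG00905, with a mean of 2.74. Of the 37 tRNA models, 29 are shorter than the 75-nt reads. The tRNA class held 0.946 to 1.13% of chloroplast counts.

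Nuclear genes that serve plastid transcription and RNA processing were set beside the chloroplast loci, with 26 genes in the list and 25 tested. In 35S::*FCA* against Col-0 none was higher and 1 was lower, in Col *FRI* against Col-0 1 was higher and 1 lower, and in Col *FRI* against 35S::*FCA* 1 was higher and 1 lower, with medians of -0.09, -0.01 and 0.07. Over all loci 0.49% passed as higher and 1.03% as lower in the first of these comparisons, 6.04 and 7.22% in the second and 7 and 5.92% in the third, so that 1 of 25 is a count near or below that of all loci in the comparisons with Col *FRI*. The 6 sigma factors, which direct the plastid-encoded polymerase to promoters, summed to 14.9 to 21.1 TPM in 35S::*FCA*, to 18.2 to 20.0 TPM in Col *FRI* and to 14.5 to 21.7 TPM in Col-0, and none of the 5 tested passed. The phage-type polymerase genes *RPOTp* and *RPOTmp* summed to 4.37 to 5.31 TPM in 35S::*FCA*, 3.58 to 4.14 TPM in Col *FRI* and 4.17 to 4.87 TPM in Col-0, and neither passed. Of the 12 polymerase-associated proteins only *PAP9*, an iron superoxide dismutase also named FSD2, passed. It averaged 21.7 TPM in Col *FRI*, against 35.3 TPM in Col-0 (-0.65 on the log2 scale, edgeR adjusted p = 0.0019) and 31.7 TPM in 35S::*FCA* (-0.41, adjusted p = 0.010). Of the 6 RNA processing genes, *RNE*, the plastid RNase E, averaged 1.24 TPM in 35S::*FCA*, against 1.73 TPM in Col-0 (log2 fold change -0.60, edgeR adjusted p = 0.033). *CSP41A*, a plastid RNA-binding protein, averaged 3.93 TPM in Col *FRI*, against 2.80 TPM in Col-0 (log2 fold change 0.54, edgeR adjusted p = 0.035) and 2.91 TPM in 35S::*FCA* (0.57, adjusted p = 0.028).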

How the data were processed

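The labels describe RNA-seq of 9 libraries, with 3 biological replicates per genotype, and name kallisto and TAIR10 among the processing terms. The authors deposited kallisto output for 41683 models of 33603 loci, with estimated counts that are not normalized and TPM scaled to 1000000 per library over all models. The kallisto version and index settings are not given in the sources used here. The replicate comparison used loci with 50 or more counts over both libraries.

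Counts were summed per locus and rounded. The quasi-likelihood test of edgeR 4.0.16 in R 4.3.3 was run after filterByExpr and TMM scaling on the 9 libraries at once, with the 3 genotypes as groups and Benjamini-Hochberg adjustment over all loci. DESeq2 1.42.0 was an alternative. Others were another scaling, scaling to chloroplast counts, no filter, only the 2 genotypes compared, a replicate block, other denominators, TPM in place of counts, and each library left out in turn. The functions were tested on simulated counts. Standard errors were obtained from each log2 fold change and its F statistic. At the floor of 3 counts a locus has 1.16e-05 to 1.98e-05% of a library, which covers counting error only.

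Loci carry no symbols in the files. Of the 133, 122 were matched to RefSeq (TAIR10.1) chloroplast genes by model length and gene order, 5 as the only gene between matched neighbours, 3 as parts of *rps12* and 1 by its copy, while 2 are left by identifier. Coordinates are those of TAIR10.1. Matches to nuclear and mitochondrial sequence were found with blastn 2.17.0 at 75 nt and 98% identity or more.

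The genes named are the one with the highest mean TPM per class, the 10 with the most counts, the 3 with the smallest p per comparison where none was called, and a set by role (*psbA*, *psaA*, *psaB*, *rbcL*, *atpA*, *petB*, *ndhF*, the *rpo* genes, *rps7*, *rpl2*, *rrn16S*, *rrn23S*, *accD*, *clpP*, *matK*, *ycf1*, *ycf2*). Others were named after their values were seen. The members and lists were chosen with earlier results of these data known. P-values measure the spread between libraries of 20 pooled embryos.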

Additional observations from a re-analysis of the deposited data

How the results depend on the processing

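The mean chloroplast share stayed higher in Col *FRI* than in both other genotypes under every alternative run. With 1 library left out it lay 1.44 to 2.53 percentage points over 35S::*FCA* and 0.872 to 3.69 over Col-0. With all 9 libraries Col *FRI* overlapped with Col-0 on each scale, and Col-0 replicate 3 lay above every Col *FRI* library. The difference of 35S::*FCA* from Col-0 had no fixed sign: it was -0.657 points with organelle and ribosomal RNA out of the denominator and -1.04 to 1.77 with 1 library left out. For that comparison the same omissions gave -0.24 to 0.40 for the log2 ratio of chloroplast to nuclear mRNA and -0.487 to 1.70 points for rRNA. The log2 ratio of photosynthesis to genetic system genes in Col *FRI* against 35S::*FCA* ran from -0.024 to 0.062. Other denominators turned several small class differences. On chloroplast TPM, the photosystems differed by 0.181 and rRNA by -1.26 points in 35S::*FCA* against Col-0, and ribosomal proteins by 0.0942 in Col *FRI* against Col-0. On protein-coding counts, RNA polymerase and ribosomal proteins differed by 0.180 and 1.27 in Col *FRI* against Col-0, and the photosystems by 0.524 in Col *FRI* against 35S::*FCA*.

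Calls over all loci numbered 1, 34 and 104 in 35S::*FCA* against Col-0, Col *FRI* against Col-0 and Col *FRI* against 35S::*FCA*. They were 58, 190 and 280 with DESeq2, 15, 104 and 179 with no filter on low counts, and 283, 2464 and 2402 at an adjusted p under 0.05. With 1 library left out they ran from 1 to 2, 4 to 55 and 11 to 67. Col *FRI* against Col-0 gave 12 with only the 2 genotypes. At the strict threshold Col *FRI* against 35S::*FCA* had no chloroplast locus, but 1 when scaled to chloroplast counts and 1 with only the 2 genotypes (each the short *ycf1*). At an adjusted p under 0.05 with no fold threshold, the numbers of chloroplast loci were 0, 0 and 2, and with 1 library left out 0 to 14, 0 to 78 and 0 to 7. They were 1 for 35S::*FCA* against Col-0 scaled to chloroplast counts, 1 for Col *FRI* against Col-0 with DESeq2 and 1 without the filter, and for Col *FRI* against 35S::*FCA* 4 with DESeq2, 1 when scaled, 5 without the filter and 28 with only the 2 genotypes. The replicate numbers did not pair the libraries (correlations of same-numbered libraries -0.113 to 0.265), and with a replicate block 13 loci were called in Col *FRI* against Col-0, 37 in Col *FRI* against 35S::*FCA*, and 1 chloroplast locus, the short *ycf1*, passed 0.05 in the last, where *ndhK* had an adjusted p of 0.055. The cause of these shifts was not tested.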
